A study of Homo sapiens with 12 samples.

Results

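Receptor tyrosine kinases were followed through 10 genes whose receptors are described in gliomas: EGFR, ERBB2, PDGFRA, PDGFRB, MET, AXL, FGFR1, IGF1R, INSR and EPHA2. The cells were U87, an established line from a human glioma. Members were all array probes that carried one of these symbols, 18 probes among the 47320 on the array, and the 10 genes stood among 20046 genes named on it. U87 cells received siRNA targeting BCL3 or a control siRNA and were then given temozolomide (TMZ) at 100 µM for 24 h or DMSO. Each of the 4 combinations of siRNA and treatment was hybridised to 3 Illumina bead arrays, 12 arrays in all. The groups differed in no other labelled factor. All were the same single cell line grown in DMEM with serum, so every value describes that line. BCL3 is a nuclear I-kappa-B-type protein that works as a cofactor of NF-kB subunits, and temozolomide is an alkylating drug used against glioblastoma.

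Receptor tyrosine kinases are membrane proteins that pair when a ligand binds, phosphorylate each other on tyrosines and recruit adaptor proteins. The adaptors pass the signal to the RAS to ERK cascade and to phosphoinositide 3-kinase, which drive growth, survival and movement. Their output is limited by inhibitors that bind the kinase and by ubiquitin ligases that send receptors for degradation. Gliomas are known for amplified or rearranged EGFR and for PDGFRA and MET activity, and AXL and EPHA2 are known for roles in invasion.

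Between 16381 and 17839 probes were detected per array, that is, had a detection p-value under 0.01 (34.62% to 37.70% of all probes). Mean raw intensity ran from 265.9 to 317.5 on the DMSO arrays of control siRNA and from 229.6 to 258.0 on those of BCL3 siRNA. On the TMZ arrays it ran from 260.7 to 263.5 for control siRNA and from 241.8 to 283.0 for BCL3 siRNA. The DMSO arrays of the 2 siRNAs thus did not overlap in brightness, while the TMZ arrays did. BCL3 itself fell by 0.98 on the log2 scale under its siRNA with DMSO (limma, adjusted p = 7.19e-07) and by 0.76 with TMZ (adjusted p = 6.78e-06), and its arrays did not overlap between siRNAs. Of 10 markers listed for a glioma line, VIM, CD44, TNC, NES and SOX9 were detected on all 12 arrays, OLIG2 on 9 and CHI3L1 on 11, whereas GFAP, S100B and SOX2 were detected on 0. Of the leukocyte markers, PTPRC and CD3D were detected on 0 arrays, CD14 on 9 and LYZ on 10. Of the epithelial markers, CDH1, KRT8, KRT18 and KRT19 were detected on 0 and EPCAM on 11, and of the endothelial ones CDH5, VWF and KDR on 0, PECAM1 on 1 and TEK on 12. Of the neuronal and oligodendrocyte markers, RBFOX3, MBP and MOG were detected on 0, SYT1 on 6 and SNAP25 on 12. The part of these genes in the receptor results was not tested. Nothing in the labels says that replicates were separate cultures. The p-values therefore reflect only the spread among these arrays, which may be technical, and precision is limited by having 3 arrays a group.

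Of the 18 probes, 7 were detected on all 12 arrays. They belonged to 5 genes: EGFR with 2 of its 4 probes, PDGFRB and MET with their single probes, AXL with both of its probes and EPHA2 with its single probe. A probe entered the tests if it was detected on at least 3 of 12 arrays, which 8 probes of 6 genes did. The eighth was FGFR1 probe ILMN_1796229, detected on 0 of 6 arrays of control siRNA, on 1 of 3 arrays of BCL3 siRNA with DMSO and on 2 of 3 with TMZ. It passed only through the arrays of BCL3 siRNA, so counts of called probes under BCL3 siRNA are given for the 7 probes detected on every array.

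**Figure D1:**
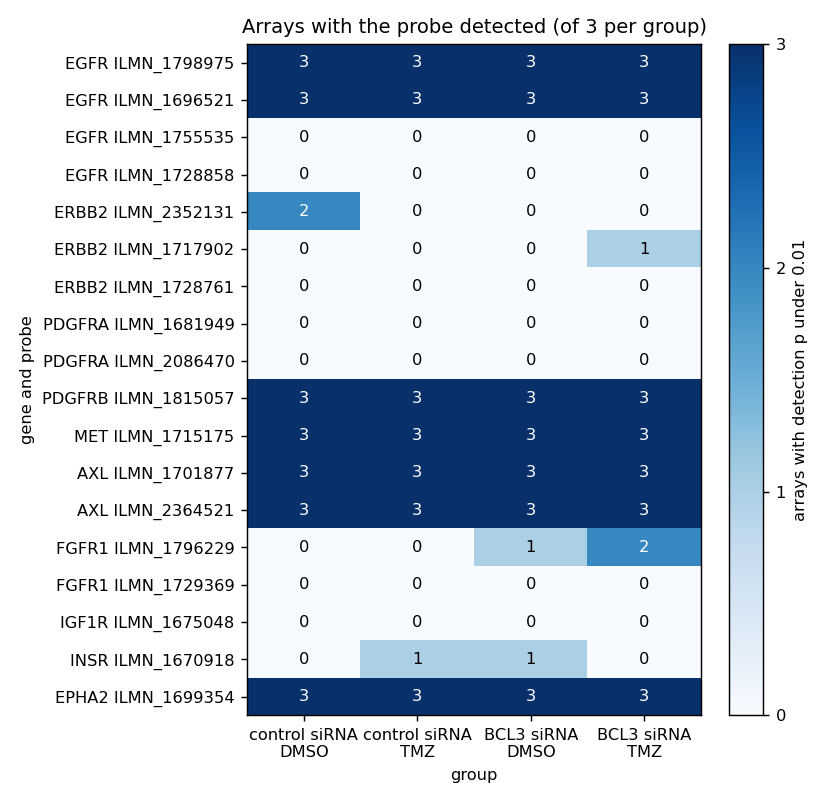
Number of arrays, of 3 in each group, on which each of the 18 receptor probes had a detection p-value under 0.01, with gene and probe in rows and groups in columns. The 7 probes at 3 in every column belong to EGFR, PDGFRB, MET, AXL and EPHA2, and 7 probes stand at 0 throughout.

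The remaining 10 probes were not tested, and 7 of them were detected on 0 arrays. Both probes of PDGFRA, the receptor for PDGF chains that marks proneural gliomas, were among the 7, with raw intensities from 86.8 to 96.1 (ILMN_1681949) and from 80.9 to 89.0 (ILMN_2086470). The single probe of IGF1R, the receptor for insulin-like growth factors, gave 84.8 to 98.7 and was detected on 0 arrays as well. The 4 other probes among the 7 were EGFR probes ILMN_1755535 and ILMN_1728858, ERBB2 probe ILMN_1728761 and FGFR1 probe ILMN_1729369.

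ERBB2, the co-receptor of the EGFR family that binds no ligand of its own, had 2 further probes with scattered detection. ILMN_2352131 was detected on 2 arrays, both of control siRNA with DMSO, and ILMN_1717902 on 1, of BCL3 siRNA with TMZ. The single probe of INSR, the insulin receptor, was detected on 1 array of control siRNA with TMZ and on 1 of BCL3 siRNA with DMSO, with raw intensities from 86.7 to 100.0 over the 12 arrays. Over all 10 untested probes raw intensity stayed between 80.9 and 110.0. ERBB2, PDGFRA, IGF1R and INSR therefore gave no level in any group, which is a statement about these probes at this brightness and not about absence of the transcripts.

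For the tested probes, values below are background-corrected, quantile-normalized log2 intensities, and differences are on the log2 scale after an offset of 16, which understates changes of dim probes. Levels of different probes are not compared, because each probe has its own response. In bulk RNA, fewer cells with a transcript and less of it per cell cannot be told apart.

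With DMSO, BCL3 siRNA was accompanied by lower PDGFRB and EPHA2 and by higher MET and AXL, with rises between 26.7% and 31.0% and falls (-29.0% and -30.2%). Of the 7 probes detected on every array, 3 rose and 2 fell at an adjusted p under 0.05, whereas over all 18105 probes tested 17.6% rose and 17.4% fell. With tests limited to the 14439 probes detected on all 12 arrays, 3271 rose and 2953 fell. The 3 rises were those of MET and of both AXL probes. The median difference of the 7 was 0.16, against 0.01 over all probes. The arrays of the 2 groups did not overlap for 5 of the 7 probes, where this held for 46% of all probes. Both EGFR probes were not called.

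PDGFRB, the receptor for PDGF-B and PDGF-D dimers that is typical of pericytes and fibroblast-like cells, had log2 intensities of 7.09, 6.94 and 6.93 with control siRNA and DMSO and of 6.33, 6.58 and 6.58 with BCL3 siRNA and DMSO. Every array of BCL3 siRNA was below every control array. The difference was -0.49 (SE 0.08, adjusted p = 0.000589, 95% interval -0.67 to -0.32), a fall by 29.0% of the offset intensity, and 8.83% of the tested probes had a larger absolute change. Raw intensities did not overlap either, at 199.0 to 240.0 against 144.3 to 159.6.

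EPHA2, a receptor for ephrin-A ligands on neighbouring cells, gave 6.28, 6.30 and 6.26 with control siRNA and 5.74, 5.47 and 6.08 with BCL3 siRNA. The groups did not overlap, but the BCL3 siRNA arrays were spread widely, with an SD of 0.31 against 0.02. The difference was -0.52 (SE 0.14, adjusted p = 0.0139), and without replicate 2 of BCL3 siRNA it was -0.37 with an adjusted p of 0.0596. Raw intensities were 152.7 to 181.2 against 106.8 to 135.0.

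MET, the receptor for hepatocyte growth factor, gave 7.99, 8.07 and 8.11 with control siRNA and 8.24, 8.54 and 8.43 with BCL3 siRNA. After normalization all 3 arrays of BCL3 siRNA were above the control arrays, and the difference was 0.35 (SE 0.08, adjusted p = 0.00589). Before normalization they were not: raw intensities were 372.9, 433.4 and 355.1 with control siRNA and 348.9, 356.4 and 398.5 with BCL3 siRNA. The separation in MET thus appeared with the scaling of arrays that differed in overall brightness.

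AXL, the TAM-family receptor for the ligand GAS6, was read by a pair of probes. ILMN_1701877 gave 10.90, 11.03 and 10.95 with control siRNA and 11.26, 11.31 and 11.49 with BCL3 siRNA, a difference of 0.39 (SE 0.08, adjusted p = 0.00343). ILMN_2364521 gave 10.30, 10.38 and 10.46 against 10.63, 10.74 and 10.78, a difference of 0.34 (SE 0.08, adjusted p = 0.00618). Both probes of AXL separated the groups after normalization, and as with MET the raw values overlapped: 2039.5 to 2738.1 against 2143.6 to 2847.8 for ILMN_1701877, and 1467.9 to 1772.6 against 1438.4 to 1754.6 for ILMN_2364521.

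The calls for MET and AXL with DMSO depended on the scaling. Under median scaling over all probes, which moved the median of all tested probes to -0.24 and left rises at 4.4% of calls in place of 50.4%, MET differed by 0.01 (adjusted p = 0.95) and the AXL probes by 0.16 and 0.09 (adjusted p = 0.362 and 0.619). Median scaling over the probes detected on all 12 arrays moved that median to 0.11, with rises at 67.2% of calls, and kept every call of the 7 probes. It also gave FGFR1, whose probe entered the fit only through arrays of BCL3 siRNA, a difference of 0.43, not given as a test. With mean raw brightness as a covariate PDGFRB alone passed. Brightness was not balanced between these 2 groups, and its part in the result was not tested further.

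EGFR, the receptor for EGF, TGF-alpha and HB-EGF, was not called in this comparison. ILMN_1798975 gave 6.75, 6.74 and 6.63 with control siRNA and 6.72, 6.84 and 6.85 with BCL3 siRNA. The groups overlapped, and the difference was 0.10 (95% interval -0.04 to 0.24, adjusted p = 0.267). The second probe, ILMN_1696521, gave 5.93, 5.98 and 6.07 against 6.12, 6.27 and 6.07, with a difference of 0.16 (95% interval -0.01 to 0.32, adjusted p = 0.129). FGFR1, a receptor for fibroblast growth factors, gave 4.74, 4.67 and 4.25 against 4.98, 4.71 and 4.49, and the groups overlapped. Its probe was detected on 0 of the control arrays and entered the fit only through arrays of BCL3 siRNA. Neither a fold of the measured values nor an adjusted p is therefore given.

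With TMZ, BCL3 siRNA was compared with control siRNA on the other 6 arrays, which share none with the DMSO comparison. PDGFRB and EPHA2 were again lower and MET and AXL again higher. Of the 7 probes detected on every array 3 rose and 2 fell, against 16.9% and 16.7% of all tested probes, with a median difference of 0.04. Tests limited to the 14439 probes detected on all 12 arrays gave 3190 rises and 2894 falls. MET and both AXL probes again made up the 3 rises. The groups did not overlap for 5 of the 7 probes, as for 45.8% of all probes.

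MET gave 8.10, 8.10 and 8.13 with control siRNA and 8.60, 8.35 and 8.52 with BCL3 siRNA. The groups did not overlap, and the difference was 0.38 (SE 0.08, adjusted p = 0.00382), a rise of 30.1%. Here the raw intensities were apart too, at 349.0 to 360.2 with control siRNA and 399.3 to 457.2 with BCL3 siRNA.

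AXL probe ILMN_1701877 gave 11.13, 11.09 and 10.96 with control siRNA and 11.48, 11.28 and 11.53 with BCL3 siRNA, a difference of 0.37 (SE 0.08, adjusted p = 0.0043). Its raw intensities did not overlap, at 2060.2 to 2237.7 against 2597.5 to 3276.6. ILMN_2364521 gave 10.55, 10.40 and 10.40 against 10.63, 10.62 and 10.86, a difference of 0.25 (SE 0.08, adjusted p = 0.0298). The raw values of this second AXL probe overlapped. Its adjusted p went up to 0.125 without replicate 3 of BCL3 siRNA, where the difference was 0.18. Without replicate 2 or 3 of control siRNA it was 0.0951 and 0.0962. The call was also lost under median scaling over all probes (0.31, adjusted p = 0.0939). It was lost too without the detection filter and with only the arrays compared (adjusted p = 0.0563 for each).

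PDGFRB gave 6.75, 6.89 and 6.72 with control siRNA and 6.50, 6.53 and 6.57 with BCL3 siRNA. Each array of BCL3 siRNA was lower, by 0.26 on average (difference -0.26, SE 0.08, adjusted p = 0.0295). The call was lost without replicate 2 of control siRNA (-0.20, adjusted p = 0.12), without replicate 1 of BCL3 siRNA (-0.24, adjusted p = 0.0812) or without its replicate 2 (-0.25, adjusted p = 0.0631). The PDGFRB call was also lost under median scaling over all probes (-0.33, adjusted p = 0.0661) and without the detection filter (adjusted p = 0.056). EPHA2 gave 5.92, 6.36 and 6.43 against 5.72, 5.77 and 5.71, a difference of -0.51 (SE 0.14, adjusted p = 0.0161). The control arrays of EPHA2 were the spread ones here, and the call was lost without replicate 2 (-0.44, adjusted p = 0.0633) or replicate 3 (-0.41, adjusted p = 0.0712).

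FGFR1 probe ILMN_1796229 gave 4.34, 4.59 and 4.34 with control siRNA and 4.79, 4.90 and 4.80 with BCL3 siRNA. The group means were 4.42 and 4.83, and the groups did not overlap. The probe was detected on 0 of the 3 control arrays and on 2 of the 3 of BCL3 siRNA, so no fold of the measured values is given. With control arrays counted at the lowest signal detected on each, or at their own value where higher, the fold was 1.10. The same count with DMSO gave 0.98. Neither is a lower limit, because undetected arrays of BCL3 siRNA entered the means. The probe entered the fit only through the arrays on which it was high, so neither the separation nor its adjusted p is given as a test. The EGFR probes differed by 0.01 (95% interval -0.13 to 0.15, adjusted p = 0.891) and by 0.04 (95% interval -0.12 to 0.21, adjusted p = 0.698).

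**Figure D2:**
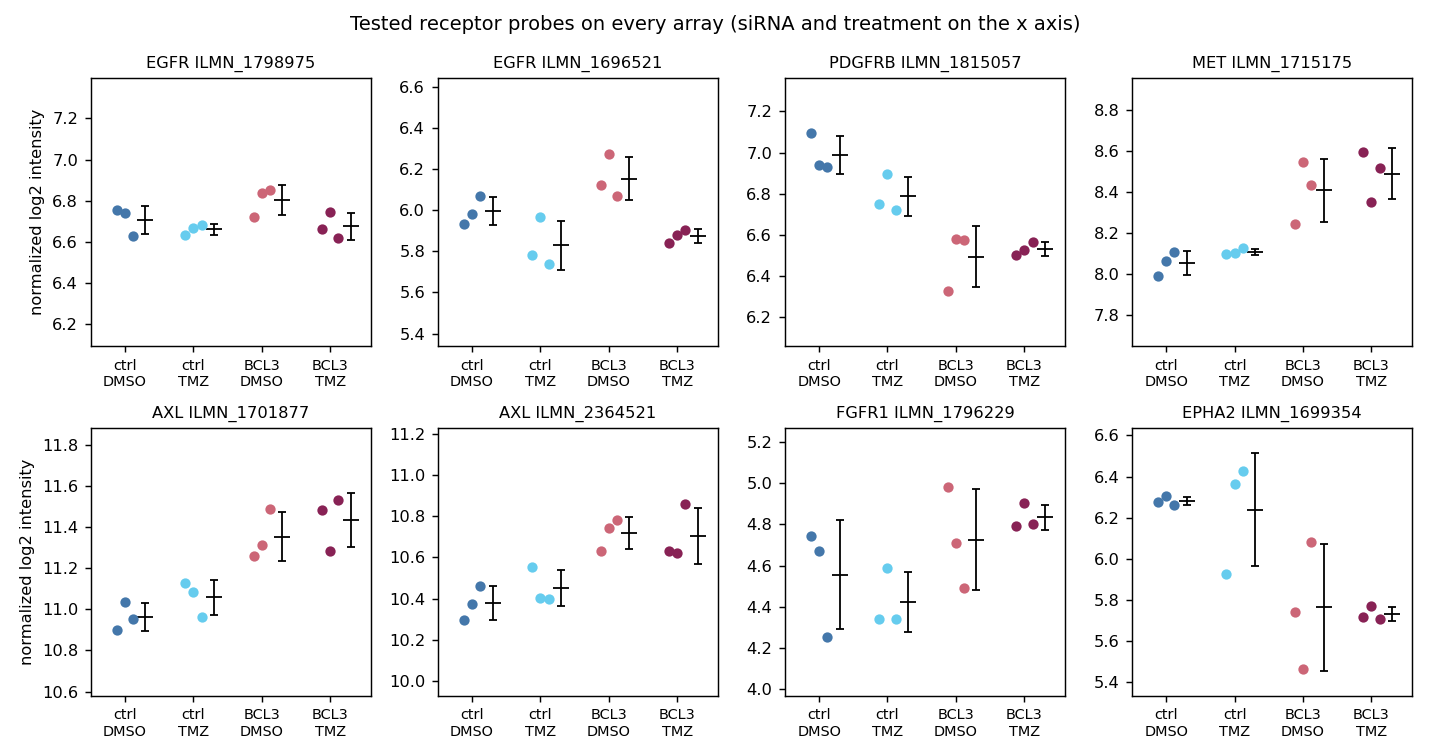
Normalized log2 intensity (y axis) of the 8 tested receptor probes on each of the 12 arrays, grouped on the x axis by siRNA (ctrl, control; BCL3) and treatment. Points are arrays, the black mark and bar are the mean and SD of 3 arrays, and every panel spans the same number of log2 units. The BCL3 siRNA arrays of MET and AXL lie above, and those of PDGFRB and EPHA2 below, the control arrays given the same treatment.

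Promoter sequence is shown for the 4 genes whose probes were called in both BCL3 siRNA comparisons, because BCL3 works through NF-kB subunits that bind DNA at kappaB elements. Each window is the 250 bases before the RefSeq start of the gene in GRCh38.p14, 5′ to 3′ on the gene's strand: MET on the plus strand at chr7:116671946-116672195, AXL (the first of its 2 starts) on the plus strand at chr19:41218973-41219222, PDGFRB on the minus strand at chr5:150155846-150156095 and EPHA2 on the minus strand at chr1:16156070-16156319. Capitals mark matches, on either strand, to the kappaB-type pattern GGGNNNNNCC and to the GC box GGGCGG.
MET: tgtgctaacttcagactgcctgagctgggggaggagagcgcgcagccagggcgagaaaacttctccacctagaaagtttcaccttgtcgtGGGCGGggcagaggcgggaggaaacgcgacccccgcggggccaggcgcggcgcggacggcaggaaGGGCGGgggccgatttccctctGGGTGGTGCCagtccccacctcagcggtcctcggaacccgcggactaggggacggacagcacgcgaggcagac
AXL: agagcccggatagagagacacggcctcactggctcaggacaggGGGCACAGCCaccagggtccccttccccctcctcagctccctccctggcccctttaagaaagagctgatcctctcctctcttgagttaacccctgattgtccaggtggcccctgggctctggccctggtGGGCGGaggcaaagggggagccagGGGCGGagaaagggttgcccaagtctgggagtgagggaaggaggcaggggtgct
PDGFRB: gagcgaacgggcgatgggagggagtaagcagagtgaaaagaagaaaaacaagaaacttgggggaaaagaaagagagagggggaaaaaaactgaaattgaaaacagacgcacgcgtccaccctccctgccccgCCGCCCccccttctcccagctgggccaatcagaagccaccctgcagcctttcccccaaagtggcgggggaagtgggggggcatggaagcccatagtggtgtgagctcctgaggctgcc
EPHA2: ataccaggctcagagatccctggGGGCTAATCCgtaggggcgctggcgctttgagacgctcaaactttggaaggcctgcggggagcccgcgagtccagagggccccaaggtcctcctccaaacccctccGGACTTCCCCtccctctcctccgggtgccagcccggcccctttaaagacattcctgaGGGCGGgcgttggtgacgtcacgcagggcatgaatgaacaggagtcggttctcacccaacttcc

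The kappaB-type pattern occurred 1 time in the MET window, 1 time in that of AXL, 2 times in that of EPHA2 and 0 times in that of PDGFRB. The window of the second AXL start held it 0 times. Among receptors not called or not tested, it occurred 1 time in the first EGFR window, 3 times for IGF1R and 9 times for INSR. It occurred 0 times in the second EGFR window and in those of ERBB2 and PDGFRA. The pattern is loose: 54.4% of 35116 promoter windows of this length hold it. GC boxes occurred 2 times each in the MET and AXL windows and 1 time each in those of PDGFRB and EPHA2, and 42.6% of windows hold one. None of the 4 windows held TATAAA, found in 10.7% of windows, or the AP-1 pattern TGANTCA, found in 6.57%. CCAAT was found in the PDGFRB window and in 32% of all windows. GC content was 68.4% for MET, 64.4% for AXL, 58.4% for PDGFRB and 63.2% for EPHA2, against a median of 58% over all windows. A match here is a match of letters and not a binding site.

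TMZ alone was not followed by a called change in any receptor probe. With control siRNA, TMZ was compared with DMSO on arrays that both knockdown comparisons also used, and 0 of the 8 probes were called, as 0.503% of all probes were. The lowest adjusted p was that of PDGFRB, 0.308, for a difference of -0.20 (95% interval -0.38 to -0.02), with arrays that did not overlap. MET differed by 0.06 (95% interval -0.13 to 0.24) and AXL probe ILMN_1701877 by 0.09 (-0.09 to 0.28). With BCL3 siRNA, 0 of 8 were called, against 0.481% of all probes. MET then differed by 0.08 (95% interval -0.10 to 0.26) and PDGFRB by 0.04 (-0.14 to 0.21).

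EGFR came closest to a TMZ call. Probe ILMN_1696521 gave 5.93, 5.98 and 6.07 with DMSO and 5.78, 5.96 and 5.74 with TMZ under control siRNA, where the groups overlapped. Under BCL3 siRNA it gave 6.12, 6.27 and 6.07 with DMSO and 5.84, 5.88 and 5.90 with TMZ, and there all TMZ arrays were lower (difference -0.28, SE 0.08, adjusted p = 0.131). Averaged over both siRNAs the difference was -0.22 (SE 0.05, adjusted p = 0.0501), just outside the threshold, in a comparison that called 2.52% of all probes. It passed under 8 of the 25 alternative settings that gave it a value, with adjusted p from 0.0271 to 0.0499. The other EGFR probe, ILMN_1798975, differed by -0.09 in that average (95% interval -0.19 to 0.01, adjusted p = 0.317). The 2 EGFR probes thus had the same sign, and neither was called.

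The test of whether the effect of BCL3 siRNA differed between DMSO and TMZ called 0 of 8 receptor probes and 0 of all 18105, that is 0%, by limma. Of all probes 1258 had an unadjusted p under 0.05, and none of the 8 receptor probes did. PDGFRB, whose difference was -0.49 with DMSO and -0.26 with TMZ, had an interaction of 0.24 (95% interval -0.01 to 0.49, adjusted p = 0.733). For MET the interaction was 0.03 (95% interval -0.23 to 0.28) and for EPHA2 0.01 (-0.43 to 0.45), so differences between treatments of up to about those bounds were within the error.

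**Figure D3:**
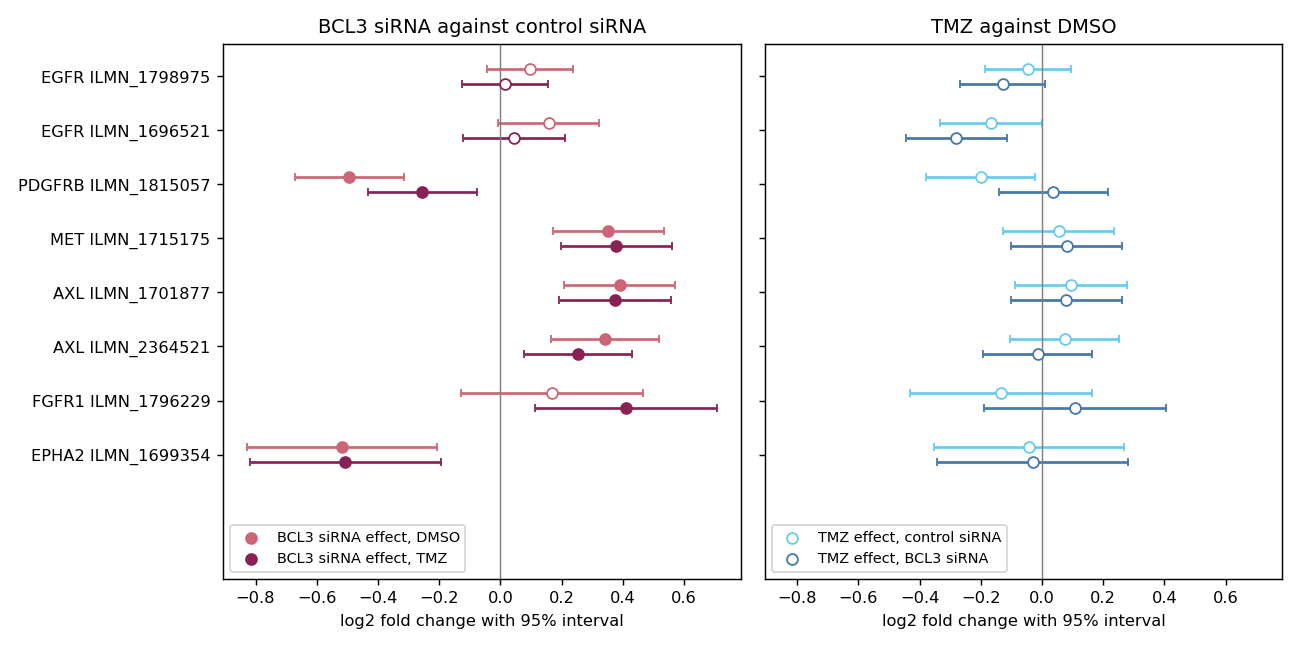
Log2 fold changes (x axis) with 95% intervals of the 8 tested receptor probes (y axis) for BCL3 siRNA against control siRNA (left) and TMZ against DMSO (right). Filled points passed an adjusted p of 0.05 and open points did not: 5 and 6 points are filled on the left with DMSO and TMZ, and 0 on the right. The filled FGFR1 point belongs to the probe that passed the filter only through arrays of BCL3 siRNA.

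Beyond the 10 genes, 45 other receptor tyrosine kinases had a named probe, and 15 had a tested one. In these, 3 rose and 4 fell under BCL3 siRNA with DMSO, and 3 rose and 4 fell with TMZ, with medians of 0.04 and -0.005. Among all tested probes 17.6% rose and 17.4% fell with DMSO, and 16.9% and 16.7% did with TMZ. DDR2, a collagen receptor, fell by 0.78 with DMSO (adjusted p = 9.57e-05) and by 0.53 with TMZ (adjusted p = 0.0016). CSF1R, the receptor for the macrophage growth factor CSF1, fell by 0.57 (adjusted p = 4.78e-05) and by 0.53 (adjusted p = 8.52e-05). TEK, the angiopoietin receptor, fell by 0.56 and 0.67 (adjusted p = 0.00106 and 0.000302), and its second probe fell by 0.48 and 0.68. TEK was the only one of the 5 endothelial markers detected on more than 1 array. The mean log2 level of these 5 markers was 4.81 to 4.86 (DMSO) and 4.83 to 4.94 (TMZ) on control siRNA arrays, and 4.59 to 4.68 (DMSO) and 4.54 to 4.67 (TMZ) on BCL3 siRNA arrays. That mean was taken over all probes of the 5 markers, both TEK probes included. It is therefore not separate from the TEK falls. STYK1, a kinase with a short extracellular part, rose by 0.25 with DMSO (adjusted p = 0.0205) and by 0.26 with TMZ (adjusted p = 0.0169). With TMZ averaged over siRNAs it rose by 0.35 (adjusted p = 0.0046). The STYK1 probe was not detected on every array, and the rises counted above include it. Whether it passed the filter only through groups where it was high was not examined. Its calls under BCL3 siRNA were lost without replicate 3 of control siRNA (0.21, adjusted p = 0.0748) or replicate 2 of BCL3 siRNA with DMSO (0.20, adjusted p = 0.0855), and with TMZ without replicate 2 or 3 of control siRNA or replicate 1 of BCL3 siRNA (0.22 to 0.24, adjusted p from 0.0604 to 0.0676). STYK1 was also not called under BCL3 siRNA, with DMSO and with TMZ, by maximum-likelihood normexp (0.11 in both), without background correction (0.07 and 0.08), with an offset of 50 (0.10 and 0.12), under median scaling (0.19 and 0.22) or with trend and robust moderation (adjusted p = 0.126 and 0.112). With brightness as a covariate it lost the DMSO call (adjusted p = 0.217), and under median scaling over the probes detected on all 12 arrays the TMZ one (0.27, adjusted p = 0.0504).

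Of 27 listed ligands with a probe, 12 were tested. With DMSO 3 rose and 2 fell (median -0.11), and with TMZ 4 rose and 2 fell (median 0.18). Calls in either direction made up 35% of all tested probes with DMSO and 33.5% with TMZ. HBEGF, which encodes an EGFR ligand shed from the membrane, had mean log2 intensities of 8.95 ± 0.03 (SD, n = 3) under DMSO and 8.79 ± 0.07 under TMZ on control siRNA arrays, and of 8.35 ± 0.03 under DMSO and 7.99 ± 0.08 under TMZ on BCL3 siRNA arrays. It fell under BCL3 siRNA by 0.59 with DMSO (adjusted p = 1.81e-05) and by 0.80 with TMZ (adjusted p = 1.39e-06). HBEGF fell with TMZ by 0.36 under BCL3 siRNA (adjusted p = 0.0233), a call lost without any 1 of the 6 arrays compared (-0.39 to -0.32, adjusted p from 0.0505 to 0.086). It was also lost with the replicate block (adjusted p = 0.0604), with only the arrays compared (adjusted p = 0.186) and under median scaling (-0.22, adjusted p = 0.439). Under control siRNA the difference was -0.15 (adjusted p = 0.308). The difference between those TMZ effects was -0.21 with an adjusted p of 0.702.

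TGFA, another EGFR ligand, fell under BCL3 siRNA by 0.44 with DMSO and by 0.36 with TMZ (adjusted p = 0.000405 and 0.00186), and a second TGFA probe fell by 0.49 and 0.42. With TMZ averaged over siRNAs TGFA rose by 0.24 (adjusted p = 0.027), a call lost under 9 of 26 alternative settings, among them those without replicate 2 or 3 of either DMSO group or of control siRNA with TMZ, or replicate 3 of BCL3 siRNA with TMZ (0.22 to 0.24, adjusted p from 0.054 to 0.0708). The replicate block (adjusted p = 0.0526) and median scaling (adjusted p = 0.299) ended it too. HBEGF and TGFA thus fell under BCL3 siRNA, while neither EGFR probe was called.

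NRG1, a ligand of the ERBB3 and ERBB4 receptors, rose by 0.49 and 0.35 on its brightest probe (adjusted p = 0.000135 and 0.00151), whereas another NRG1 probe fell by 0.23 with DMSO (adjusted p = 0.0395), so its probes disagreed. Under median scaling both NRG1 calls were lost, at 0.14 with DMSO and 0.29 with TMZ (adjusted p = 0.429 and 0.115). FGF1, a ligand of FGF receptors, rose by 0.40 and 0.55 on its brightest probe (adjusted p = 0.00362 and 0.000365), and its other 2 probes were not called. The FGF1 call with DMSO was lost under median scaling (0.09, adjusted p = 0.606) and with brightness as a covariate (0.30, adjusted p = 0.118). GAS6, the ligand of AXL, rose by 0.26 with DMSO (adjusted p = 0.0188) and by 0.22 with TMZ (adjusted p = 0.0433), and is named here after its values were seen. GAS6 turned to -0.08 with DMSO under median scaling, and its adjusted p passed 0.05 without replicate 2 of control siRNA or replicate 2 or 3 of BCL3 siRNA with DMSO (0.0528 to 0.0805); with TMZ it did so without any 1 of the 6 arrays compared but replicate 3 of control siRNA (0.0506 to 0.158), and narrowly without any control siRNA array or replicate 2 of BCL3 siRNA with DMSO (0.0512 to 0.0542). HGF, the ligand of MET, and PDGFB and PDGFD, ligands of PDGFRB, had no probe detected on more than 1 array. The same was true of EGF, IGF1, IGF2 and INS.

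Adaptor and downstream genes were mostly detected, 20 of 23 with a probe. With DMSO 4 rose and 6 fell (median -0.08), and with TMZ 3 rose and 7 fell (median -0.04). The share of all tested probes called in either direction was 35% with DMSO and 33.5% with TMZ. MAPK3, which encodes the kinase ERK1, fell by 0.67 with DMSO (adjusted p = 4.24e-05) and by 0.78 with TMZ (adjusted p = 1.14e-05), and a second probe fell by 0.87 and 0.84. SRC, a membrane-bound tyrosine kinase that receptors activate, fell by 0.63 and 0.42 (adjusted p = 4.75e-05 and 0.000987). PIK3CB, a catalytic subunit of phosphoinositide 3-kinase, fell by 0.48 and 0.29 (adjusted p = 0.000604 and 0.0146), the latter lost without replicate 3 of control siRNA (-0.25, adjusted p = 0.059). NCK2, an adaptor that links receptors to the actin skeleton, rose by 0.39 and 0.48 on its brightest probe (adjusted p = 0.0029 and 0.000698), and its other probe was not called, at 0.22 and -0.17. With DMSO NCK2 differed by 0.04 under median scaling (adjusted p = 0.832), and its adjusted p was 0.0672 with the covariate.

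Negative regulators and trafficking genes were tested for 24 of 26 genes with a probe, and 5 rose and 2 fell in each of the 2 comparisons (medians 0.07 and 0.06). Over all tested probes 35% were called in either direction with DMSO and 33.5% with TMZ. ERRFI1, which encodes the EGFR-family kinase inhibitor MIG6, had mean log2 intensities of 9.88 ± 0.07 (SD, n = 3), 9.63 ± 0.05, 10.72 ± 0.05 and 10.46 ± 0.08 in the order control siRNA with DMSO, control siRNA with TMZ, BCL3 siRNA with DMSO and BCL3 siRNA with TMZ. It rose by 0.84 with DMSO (adjusted p = 1.12e-06) and by 0.83 with TMZ (adjusted p = 1.38e-06). LRIG1, a membrane protein that promotes degradation of EGFR and MET, rose by 0.78 and 0.84 (adjusted p = 7.08e-06 and 4.18e-06), and its second probe rose by 0.63 in both.

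With TMZ averaged over siRNAs ERRFI1 fell by 0.26 (adjusted p = 0.0121) and LRIG1 by 0.29 (adjusted p = 0.0145), calls lost under median scaling (adjusted p = 0.288 and 0.219). The second LRIG1 probe gave -0.42 in that average (adjusted p = 0.000625). It was also called for TMZ under control siRNA and under BCL3 siRNA (-0.42 in both, adjusted p = 0.0204 and 0.0206). The brightest LRIG1 probe was called in neither (adjusted p = 0.107 and 0.151). CBL, the ubiquitin ligase that marks activated receptors for degradation, fell by 0.83 and 0.60 (adjusted p = 1.65e-05 and 0.000215), with a second probe at -0.83 and -0.75. GRB14, an adaptor that inhibits the insulin receptor kinase, fell by 0.41 and 0.39 (adjusted p = 0.000241 and 0.000341), but its other probe was not called. The inhibitors of receptor output named here moved in both directions.

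All 5 tested IGF-binding genes, of 8 with a probe, were called under BCL3 siRNA, with 2 rises and 3 falls in each comparison (medians -0.21 and -0.23), where 17.6% of all probes rose and 17.4% fell with DMSO and 16.9% and 16.7% did with TMZ. IGFBP3, the main carrier of IGFs in serum, rose by 0.43 and 0.50 (adjusted p = 0.000458 and 0.000161), and its second probe rose by 0.56 and 0.57. Under median scaling IGFBP3 differed by 0.12 with DMSO (adjusted p = 0.476). IGFBP1 fell by 0.81 and 0.58 (adjusted p = 0.000678 and 0.0058), IGFBP7 by 0.30 and 0.34 (adjusted p = 0.00798 and 0.00379) and IGFBP6 by 0.21 and 0.23 (adjusted p = 0.0176 and 0.0104). The IGFBP6 call with DMSO was lost without replicate 3 of BCL3 siRNA (-0.17, adjusted p = 0.0718) and with brightness as a covariate (adjusted p = 0.0561), which also ended that of IGFBP7 (-0.28, adjusted p = 0.105). Median scaling over the probes detected on all 12 arrays gave IGFBP6 -0.11 and -0.12 (adjusted p = 0.175 and 0.162), and median scaling over all probes ended its call with TMZ (-0.17, adjusted p = 0.423). IGF2R, the remaining tested gene of this list and itself an IGF receptor, was the other rise in each comparison. Of the receptor tyrosine kinases for IGFs and insulin, the IGF1R probe was detected on 0 arrays and the INSR probe on 2.

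Of 14 listed genes for ligand or receptor processing 9 were tested, with 1 rise and 4 falls with DMSO and 1 rise and 2 falls with TMZ (medians -0.14 and -0.05). Over all tested probes 17.6% rose and 17.4% fell with DMSO, and 16.9% and 16.7% did with TMZ. ADAM17, the protease that sheds TGF-alpha and HB-EGF, rose by 0.28 with DMSO (adjusted p = 0.00929), which turned to -0.07 under median scaling, and by 0.37 with TMZ (adjusted p = 0.00165, or 0.111 under median scaling). Its 2 other probes were not called with TMZ, at -0.10 and 0.05, and with DMSO 1 of them rose by 0.45 (adjusted p = 0.0432) and the other gave 0.10 (adjusted p = 0.643). ADAM15, a related protease, fell by 0.41 and 0.50 (adjusted p = 0.000935 and 0.000213) on its brightest probe, while 1 of its 3 other probes was not called in either comparison. FURIN, which cleaves the MET, INSR and IGF1R precursors, fell by 0.28 with DMSO (adjusted p = 0.0127, or 0.0569 without replicate 2 of control siRNA) and differed by -0.05 with TMZ (adjusted p = 0.668). ADAM10, a sheddase of AXL and MET, fell by 0.35 with DMSO (adjusted p = 0.0276), while its other probe gave -0.08 (adjusted p = 0.546). The ADAM10 call was lost without replicate 1 or 2 of control siRNA or replicate 2 or 3 of BCL3 siRNA (-0.34 to -0.26, adjusted p from 0.0662 to 0.115).

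**Figure D4:**
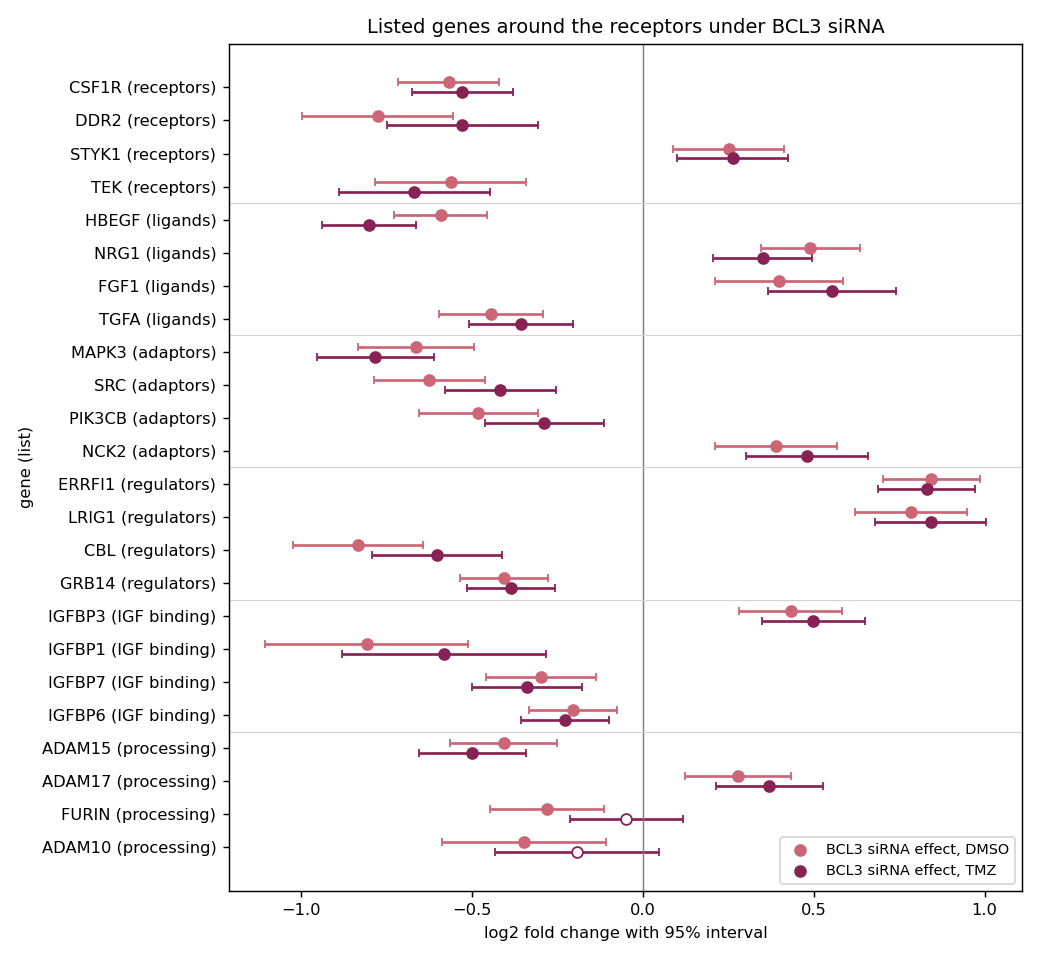
Log2 fold change (x axis) with 95% interval under BCL3 siRNA, with DMSO and with TMZ, of the 24 listed genes named around the receptors (y axis, with the list in brackets), each by its brightest probe. Filled points passed an adjusted p of 0.05. ERRFI1 and LRIG1 lie near 0.8 on the right, and MAPK3, CBL, HBEGF, DDR2 and IGFBP1 are among those on the left.

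For the 3 receptors with the widest difference under BCL3 siRNA and DMSO, the genes with the most similar values over the 12 arrays were sought as a description. Likeness was the root mean square difference of log2 values centred per probe, and all 12 arrays share the 4 groups. PDGFRB was closest to IL7R, a cytokine receptor gene, at 0.0539, then PTCD2 at 0.0784 and TMEM109 at 0.0822, against a median of 0.255 over named genes. AXL was closest to ZNF432 at 0.0532, ALPP at 0.0582 and PTPN12 at 0.0591, against a median of 0.251. EPHA2 was closest to SH3BP1 at 0.109, RPL23AP53 at 0.127 and PMF1 at 0.137, against a median of 0.332. The EPHA2 matches were the loosest of the 3.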

How the data were processed

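Polyadenylated RNA of U87 cells was amplified to biotin-labelled cRNA and read on Illumina bead arrays, per the labels. The authors deposited raw probe intensities on a linear scale, not normalized, with a detection p-value per probe and array in the same deposited table, whose detection columns name no sample and were each matched to the intensity column they fell with most strongly. A second deposited table holds intensity values that the authors had normalized, judged from the values, and served as an alternative. Scanner software was not given in the sources used here.

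Background correction, quantile normalization and log2 transformation used the neqc function of limma 3.58.1 in R 4.3.3. Its negative controls were estimated through the detection p-values, and its offset was 16. The filter kept 18105 probes, those detected (p-value under 0.01) on 3 or more of the 12 arrays. One model with 4 group means was fitted over all 12 arrays by lmFit and eBayes, two-sided, with Benjamini-Hochberg adjustment over all kept probes and a threshold of 0.05, for 6 comparisons: BCL3 siRNA in each treatment, TMZ in each siRNA, their interaction and TMZ averaged over siRNAs. Steps were tested on simulated data. Symbols came from the platform annotation (30112 of 47320 probes with exactly 1) and were looked up in the RefSeq gene table (30073 found, 0 changed). Members, lists and tests were chosen with earlier results of these data known. The text names every member, BCL3, up to 4 called genes per list by lowest p, and the 3 genes most like each of 3 members; the brightest probe represents a listed gene. Listed genes without a named probe were not analysed here. Promoters are RefSeq windows of GRCh38.p14; both strands were searched. Same-numbered arrays did not deviate together (correlations of deviations from -0.151 to 0.181, with 4 of 18 over 0.1), so replicate numbers were not taken as pairs.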

Additional observations from a re-analysis of the deposited data

How the results depend on the processing

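Across 27 alternative settings, 1422 values of the tested member probes and of the BCL3 probe were recomputed. Of these, 1384 kept their side of the threshold, 29 lost the call, 9 gained one and 0 called values changed sign. The 1384 include 53 uncalled values that did change sign. Among the other named genes, ADAM17 turned to -0.0693 and GAS6 to -0.0827 with DMSO under median scaling. The number of member probes called for BCL3 siRNA, FGFR1 included, was 5 with DMSO, 2 under median scaling, 1 with mean raw intensity as a covariate (2997 probes called in all, against 6337) and 4 to 5 with an array left out (4957 to 6376 in all). With TMZ it was 6, 3 without a filter on dim probes and 3 to 6 with an array left out (4846 to 6169 in all, against 6072). The 3 with an array left out arose without replicate 2 or replicate 3 of control siRNA with TMZ. Median scaling called 3648 in all with TMZ. The 6 included FGFR1, whose probe passed the filter only through arrays of BCL3 siRNA, so that call is not given as a test. Of the 7 probes detected on every array, 3 rose and 2 fell with TMZ. The covariate and the scaling over probes detected on all 12 arrays were chosen after seeing the data.

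For TMZ with control siRNA the count over all probes was 91, and 356 with normexp by maximum likelihood, 467 without background correction, 160 with median scaling, 308 with an offset of 50, 59 with detection p under 0.05, 55 with only the arrays compared, 57 with the replicate block, 386 with trend and robust moderation, 23 with the covariate and 35 to 87 with an array left out. With BCL3 siRNA it was 87, and 311, 358, 139 and 269 under the first 4 of these, 144 for probes detected on all 12 arrays, 6 with only the arrays compared, 321 with trend and robust moderation and 35 to 78 with an array left out. The interaction called 0, and 4, 3, 27 and 5 under the first 4, 3 with trend and robust moderation and 0 to 0 with an array left out. Averaged over siRNAs TMZ called 456, and 1081, 1248, 145 and 1030 under the first 4, 812 for probes detected on all 12 arrays, 1162 with trend and robust moderation and 215 to 508 with an array left out. The single member probe that joined these, in 1 case each, was EGFR ILMN_1696521, under normexp, no background correction, cyclic loess, an offset of 50, detection on all 12 arrays and trend and robust moderation, and 0 to 1 were called with an array left out. Median scaling set rises at 16.2% of TMZ calls with control siRNA and at 95.7% with BCL3 siRNA, against 53.8% and 57.5%, with all-probe medians of -0.114 and 0.124. The replicate block changed no member call; among the other named genes it ended those of HBEGF for TMZ under BCL3 siRNA (adjusted p = 0.0604) and of TGFA for TMZ averaged over siRNAs (0.0526). The causes were not tested. FGFR1 ILMN_1796229 and all untested probes lay near background, which limits them most.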
